A study of Mus musculus with 4 samples.

Results

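The genes described here are the cytosolic ribosomal protein genes of the mouse and their paralogs, measured in single cells of the testis at postnatal day 8. They were taken by symbol: every row beginning with Rpl or Rps and a digit, with Rplp0, Rplp1, Rplp2 and Rpsa, and without pseudogene rows and the S6 kinase genes. This rule gave 86 of the 30828 genes in each matrix, of which 77 encode standard proteins of the ribosome (46 of the large subunit and 31 of the small subunit, called core genes below), 8 are paralogs of a core gene, and 1, Rps19bp1, encodes a protein that binds RPS19. Ribosomal protein genes with other symbols, such as Fau, are not among them. The rule used no measured value. All 86 genes are protein coding in the GENCODE M21 annotation of GRCm38, and all had UMIs in both libraries.

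The study has 4 labelled samples, 2 control and 2 Cnot3-cKO, of testis cells sorted for the surface proteins CD9 and THY1, and 1 matrix per genotype that merges both of its samples. The titles of a genotype's 2 samples differ in a prefix, NS or NOV, that the labels do not explain, so the labels do not tell separate animals from repeat runs of 1 library. The paper's methods name NextSeq and NovaSeq instruments for the single-cell libraries, names that the prefixes resemble. They do not state whether 1 library was run on both. Control samples are labelled wild-type, and whether they carried floxed alleles is not stated in the labels. For the neonatal deletion the paper describes the controls as littermates with both Cnot3 alleles floxed. Its single-cell section names them only as control. In Cnot3-cKO mice, both Cnot3 alleles were floxed and a tamoxifen-inducible Cre was driven by the germ cell gene Ddx4, so deletion was aimed at germ cells and not at Sertoli, stromal or immune cells. Animals of both genotypes received 4-hydroxytamoxifen from postnatal day 1, and the labels end the injections on days 1 and 2 for the control samples and on days 3 and 4 for the Cnot3-cKO samples, whereas the methods describe a single schedule. Genotype, library and the labelled injection days cannot be told apart, and how many animals were pooled is not given in the sources used here. With 1 library per genotype there was no replicate check and no test, so differences are given as values, with 95% intervals that cover counting error only.

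A ribosome is built from a small subunit, which reads the mRNA, and a large subunit, which joins amino acids and holds the exit tunnel of the new chain. Each cytosolic ribosomal protein is in most cases the product of a single gene, and these mRNAs are among the most abundant in any cell. Their translation is coupled to mTOR signalling through a run of pyrimidines at the 5′ end of the mRNA. Some core genes lie on the X chromosome, which male germ cells silence during meiosis, and autosomal copies such as Rpl39l and Rpl10l are known from the male germ line.

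The pair Rpl39 and Rpl39l is shown first, because the parent was lower and the copy higher in germ than in somatic cells. RPL39 lines the exit tunnel. Rpl39 lies on the minus strand of chromosome X (GRCm38, chrX:37082520-37085402) and Rpl39l on the plus strand of chromosome 16 (chr16:10170226-10174911). Their coding sequences, taken from GENCODE M21 transcripts, are 156 bases each, and capitals mark the 23 bases at which they differ.
Rpl39: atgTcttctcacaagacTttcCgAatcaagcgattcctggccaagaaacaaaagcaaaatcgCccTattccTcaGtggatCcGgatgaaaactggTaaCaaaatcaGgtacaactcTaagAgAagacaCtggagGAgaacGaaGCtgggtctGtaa
Rpl39l: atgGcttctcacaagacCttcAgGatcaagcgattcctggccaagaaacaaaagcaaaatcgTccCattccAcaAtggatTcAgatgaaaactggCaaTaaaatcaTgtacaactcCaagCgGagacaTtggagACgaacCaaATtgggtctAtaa
The coding sequences were 85.3% identical. Of 52 codons, 21 differed and 3 of those encode another residue. At the 3′ ends, which the assay counts, no stretch of 50 bases was shared with any other listed gene for Rpl39, Rpl39l or Rpl10l, so their UMIs could be told apart.

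The starts of Rpl39 and of Rpl10, another X-linked gene with a germ cell copy, are shown beside those of the copies Rpl39l and Rpl10l, because ribosomal protein mRNAs start within a run of pyrimidines. Whether Rps4x has such a copy was not examined. Each window holds 40 bases before the start and 20 from it, from the RefSeq promoter table on GRCm38.p6, and capitals mark CTTTC, a short match to the pyrimidine run of ribosomal protein mRNAs. They are chrX:37085203-37085262 on the minus strand, chr16:10170188-10170247 on the plus strand, chrX:74270776-74270835 on the plus strand and chr12:66284382-66284441 on the minus strand.
Rpl39 start: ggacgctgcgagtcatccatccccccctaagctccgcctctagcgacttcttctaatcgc
Rpl39l start: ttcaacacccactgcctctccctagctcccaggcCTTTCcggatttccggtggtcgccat
Rpl10 start: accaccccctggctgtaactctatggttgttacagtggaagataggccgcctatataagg
Rpl10l start: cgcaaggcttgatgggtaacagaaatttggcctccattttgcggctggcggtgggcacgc
Among 67 such windows of 57 core genes, CTTTC was found in 31.3%, against 8.11% of 32851 windows of all genes. On the other strand the shares were 7.46% and 7.21%. A match was counted anywhere in the window, and that of Rpl39l lies before the annotated start, so outside the mRNA as annotated. The shares are thus not shares of mRNAs that start within a pyrimidine run. A match is a description of these letters only.

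Depth and cell classes bear on every value below. Pairs of values below give the control library first and the Cnot3-cKO library second. The matrices held 181550221 and 168770743 UMIs, from which 8259 and 9268 cells were kept, with a median of 14475 and 13150 UMIs, and 18 barcodes were shared between the libraries. Germ-like cells numbered 1123 and 464 (median 41590 and 45033 UMIs), Sertoli-like cells 2885 and 4362, and interstitial cells, which are stromal and myoid cells counted together, 3704 and 3936. Macrophage-like cells numbered 55 and 63 and endothelial-like cells 37 and 42. Among germ-like cells, 410 and 311 carried markers of spermatogonial stem cells (SSC), 208 and 10 of progenitors, 275 and 67 of differentiating spermatogonia and 112 and 51 of meiotic entry, and 118 and 25 stayed unnamed. The SSC-like cells came mainly from different clusters in the 2 libraries. Cluster 0 held 85 control and 286 Cnot3-cKO cells and cluster 1 held 325 and 25, and values for both are given where they differ. UMIs of a gene were divided by all UMIs of the class and given as counts per 1e+06 (CPM). Cnot3 itself had 70.1 and 37.6 CPM among germ-like cells, a log2 ratio of -0.90 (-1.01 to -0.79), and 63.8 and 67.5 CPM among Sertoli-like cells. By stage its ratio was -1.01 (-1.17 to -0.85) in SSC-like and -1.14 (-1.90 to -0.47) in progenitor-like cells. It was -0.46 (-0.71 to -0.21) in differentiating-like, -0.47 (-0.85 to -0.10) in meiotic-like and -0.74 in the unnamed germ cells. The 8 germ markers summed to 3117 and 3233 CPM in germ-like cells, and the 10 Sertoli markers, all detected, summed there to 62.1 and 103 CPM, against 2710 and 4488 CPM in empty barcodes, which corresponds to 2.29% and 2.31% of free RNA.

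Ribosomal protein mRNA made up between 17.5% and 29.7% of UMIs in the 5 main classes. In germ-like cells the 86 genes gave 21.6% and 20.7% of UMIs, a log2 ratio of -0.07, which was -0.16 in germ cluster 0 alone and -0.011 with the germ clusters weighted as in control. Here and below, that weighting rests on 25 and 10 Cnot3-cKO cells for clusters 1 and 3, which held 325 and 208 control cells. In Sertoli-like cells the 86 genes gave 18.6% and 17.5% (-0.09), cells at which the Cre was not aimed. Interstitial cells had the highest share, 28.6% and 29.7%. Macrophage-like cells had 20.1% and 17.9%, endothelial-like cells 20.6% and 20.5%, and empty barcodes 22.9% and 20.5%. The order of interstitial, germ-like and Sertoli-like cells was the same in both libraries, with germ over Sertoli at 0.22 and 0.24 on the log2 scale, whereas macrophage-like, endothelial-like and germ-like cells lay too close to be ordered against the differences between libraries.

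**Figure D1:**
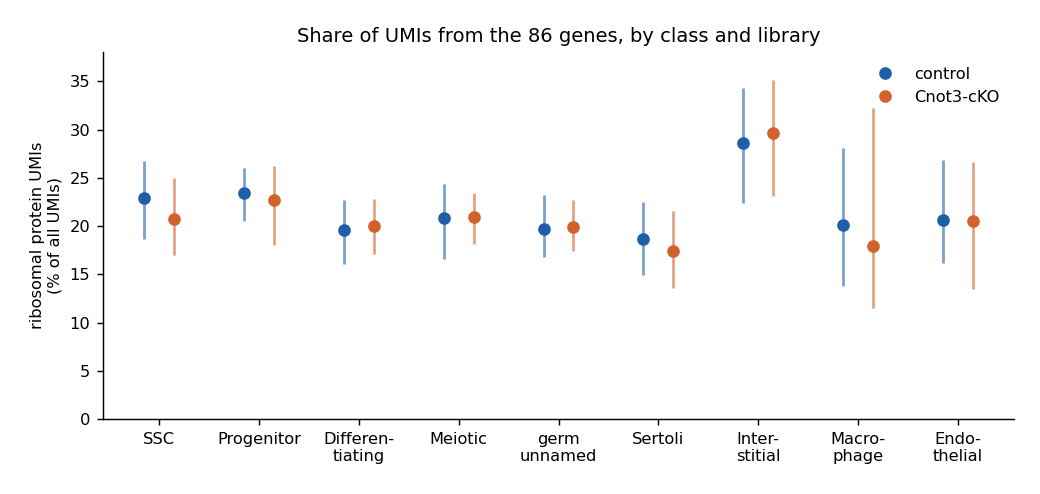
Share of all UMIs from the 86 genes (y axis, %) in each cell class (x axis), for the control and the Cnot3-cKO library. Points are the pooled share and lines span the 10th to 90th percentile of cells. Interstitial cells lie highest, at 28.6% and 29.7%, and SSC-like cells of the Cnot3-cKO library, at 20.7%, lie below those of control, at 22.9%.

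Within the germ lineage of control mice the share was higher in the early classes. SSC-like and progenitor-like cells had 22.9% and 23.4%, and differentiating-like, meiotic-like and unnamed germ cells had 19.5%, 20.8% and 19.7%. In the Cnot3-cKO library SSC-like cells had 20.7%, close to the 20.95% of meiotic-like and the 19.9% of unnamed germ cells, and progenitor-like cells had 22.7%. The lower value of SSC-like cells was found in 1 of their clusters. It was 22.9% and 20.6% in cluster 0, against 23.0% and 22.9% in cluster 1. Large subunit genes gave 1.15 times the UMIs of small subunit genes in control germ-like cells and 1.21 times in Cnot3-cKO, against 1.21 in both Sertoli-like sets.

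The levels of single core genes spanned a wide range. Since the assay counts 1 tag at the 3′ end of each mRNA, CPM can be set side by side between genes without a length correction. The median of the 77 core genes in germ-like cells was 2734 and 2599 CPM, and the lowest values were 298 and 182 CPM. Among the highest in control were Rps2 (5387 and 4308 CPM), which sits where mRNA enters the ribosome, Rps24 (5310 and 4562) and Rplp1 (5139 and 3924), a protein of the stalk that recruits elongation factors. The lowest were Rpl13a (298 and 298), Rps4x (318 and 182), Rpl39 (326 and 384), Rpl10 (500 and 516) and Rpl27 (603 and 632), and 3 of these are X-linked. For Rps2, Rplp1, Rpl13a, Rpl10 and Rpl27, at least 25% of the 50-base stretches at the 3′ end occur also in another listed gene, as for 21 of the 86 members, so reads of these genes could have been split or dropped in counting. The other copies of Rpl10, which reached 92.3% of shared stretches, had 17.0 and 18.3 CPM in germ-like and 37.2 and 35.0 CPM in Sertoli-like cells.

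Between germ-like and Sertoli-like cells, most core genes lay close together and a few X-linked genes stood far apart. Past a log2 ratio of 1 in both libraries, 2 of 77 core genes (2.6%) were higher in germ-like cells and 3 (3.9%) lower, while over all 12539 genes with enough UMIs 23.4% were higher and 23.7% lower. The median core gene was at 0.21 and 0.31. Across the 77 genes, which are not independent, the ratio in control and that in Cnot3-cKO correlated at Pearson's r = 0.95, from separate cells of separate libraries.

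On the side of germ cells, Rps2 had 5387 and 4308 CPM in the germ-like class against 2162 and 1937 in the Sertoli-like class, log2 ratios of 1.32 and 1.15. Both of its germ values lay above both Sertoli values. Others with high ratios were Rpl4, at 2133 and 2372 CPM against 1067 and 978, Rpl14 (0.98 and 1.17), also of the large subunit, Rpsa (1.08 and 0.98), known also as the laminin receptor, and the stalk protein gene Rplp2 (0.83 and 0.69). On the opposite side, below the X-linked genes, were Rps29 (-0.76 and -0.91), Rpl11 (-0.83 and -0.75), whose protein can bind the p53 regulator MDM2, and Rps27 (-0.46 and -0.94).

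All of the core genes lower in germ cells by a log2 ratio of 1 or more were X-linked. Rps4x, a small subunit protein gene (chrX:102184941-102189394), had 318 and 182 CPM in the germ-like class against 2225 and 2093 in the Sertoli-like class, log2 ratios of -2.81 and -3.52. Rpl39 was at 326 and 384 CPM against 2126 and 2098, ratios of -2.70 and -2.45. Rpl10, whose protein completes the large subunit late in assembly (chrX:74270812-74273135), was at 500 and 516 CPM against 1139 and 1100, ratios of -1.19 and -1.09. Every germ value of these 3 genes lay below every somatic value, since interstitial cells had 4971 and 5151 CPM of Rps4x, 4384 and 4595 of Rpl39 and 3567 and 3770 of Rpl10. The 4th X-linked core gene, Rpl36a (chrX:134585654-134588062), did not share this. It was at 1120 and 976 CPM in germ-like and 1146 and 1085 CPM in Sertoli-like cells, although at 2671 and 2769 CPM in interstitial cells. At the 3′ end of Rpl36a, 76.9% of the 50-base stretches occur also in other listed genes, so its reads could have been split or dropped. The more abundant of those genes had 26.9 and 20.8 CPM in germ-like and 32.8 and 27.1 CPM in Sertoli-like cells. Over all X-linked genes with enough UMIs, 35.3% of 496 were lower and 27.6% higher in germ-like cells by the same measure, and over all other genes 23.2% of 12038 were lower.

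**Figure D2:**
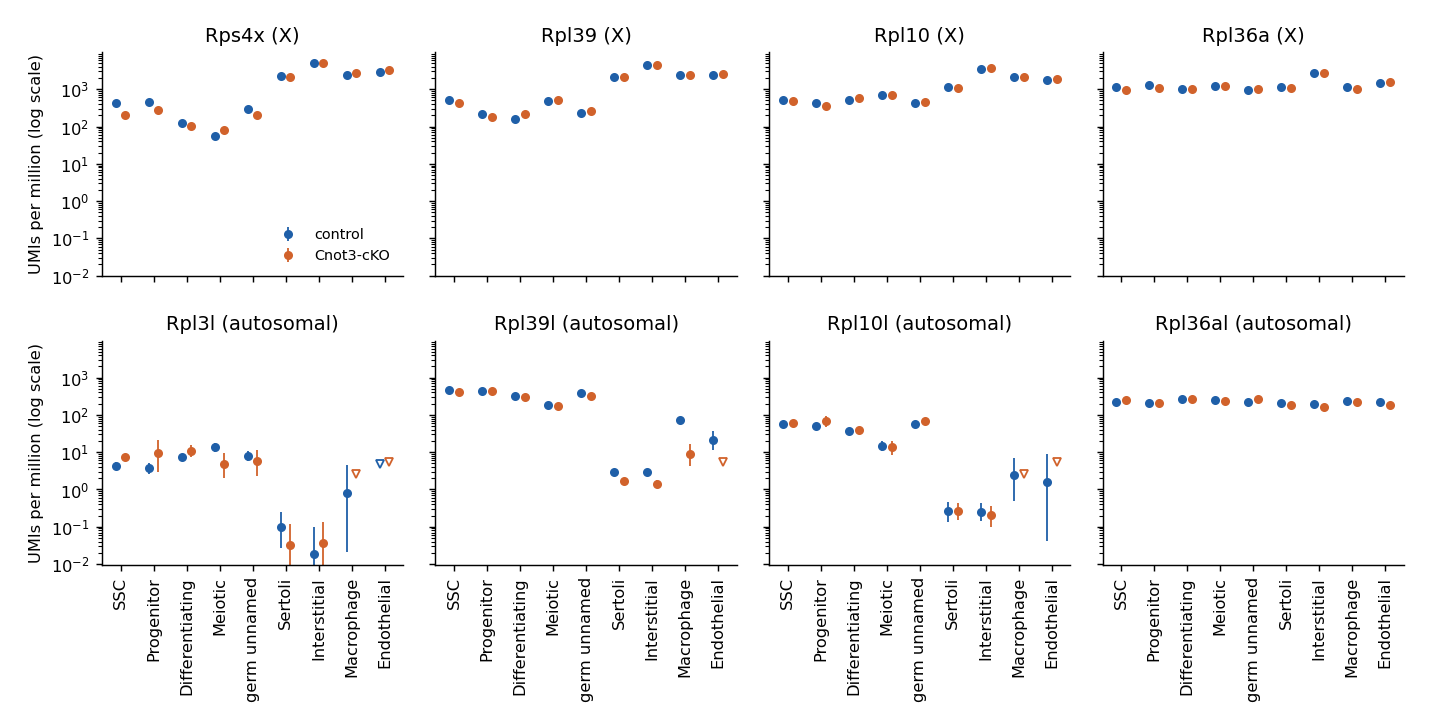
UMIs as CPM (y axis, log scale) of the 4 X-linked core genes (top) and of 4 autosomal copies (bottom, where Rpl3l is the copy of the autosomal gene Rpl3) in each cell class, with 95% counting intervals, and open triangles at the level of 3 UMIs where none was seen. Rpl39 is lower in germ-like classes than in Sertoli cells, at 2126 and 2098 CPM, while Rpl39l and Rpl10l lie near the bottom in Sertoli and interstitial cells.

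The 3 X-linked genes did not follow the same course through the germ stages. Rps4x was at 439 and 205 CPM in SSC-like, 457 and 280 in progenitor-like, 124 and 105 in differentiating-like and 56.0 and 80.2 in meiotic-like cells. The free RNA in meiotic-like cells alone would give 62.1 and 52.5 CPM of Rps4x, which is abundant in empty barcodes, so its level there was near background. Rpl39 was at 511 and 427 CPM in SSC-like, 210 and 183 in progenitor-like and 160 and 211 in differentiating-like cells, and again at 480 and 500 in meiotic-like cells. Free RNA accounts for 54.0 and 47.8 CPM of that last value. Rpl10 was at 519 and 493 CPM in SSC-like and 679 and 682 in meiotic-like cells. Thus of these 3 genes Rps4x was lowest in meiotic-like cells in both libraries, while Rpl10 was highest there among the germ stages.

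Rpl39l had the opposite distribution to Rpl39. It had 396 CPM (390 to 402) and 362 CPM (354 to 370) in the germ-like class and 3.01 and 1.69 CPM in the Sertoli-like class, log2 ratios of 7.04 (6.79 to 7.31) and 7.75 (7.46 to 8.04). Free RNA alone would give 4.57 and 2.02 CPM in Sertoli-like cells, so the somatic level did not exceed background. After each cell was thinned to 10000 UMIs, 96.2% and 93.5% of germ-like cells had at least 1 UMI of Rpl39l, against 2.94% and 1.44% of Sertoli-like and 2.78% and 1.32% of interstitial cells. Without thinning, all germ-like cells and 4.09% and 2.20% of Sertoli-like cells had a UMI. In macrophage-like cells Rpl39l gave 71.0 and 8.80 CPM, from 87 and 10 UMIs, and the 8 germ markers summed there to 475 and 19.4 CPM. The part of germ RNA in the macrophage values was not tested.

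Among the germ stages Rpl39l was lowest in meiotic-like cells, where Rpl39 was again near its level in SSC-like cells. Rpl39l was at 464 and 400 CPM in SSC-like, 450 and 433 in progenitor-like, 321 and 293 in differentiating-like and 184 and 171 in meiotic-like cells. Of the UMIs of both genes together, Rpl39l gave 47.6% (46.8 to 48.4) and 48.4% (47.5 to 49.3) in SSC-like cells, 68.2% and 70.4% in progenitor-like cells, 66.7% and 58.1% in differentiating-like cells and 27.7% (25.8 to 29.6) and 25.5% (23.0 to 28.1) in meiotic-like cells. In Sertoli-like cells it gave 0.14% and 0.08%. The sum of the pair was 975 and 826 CPM in SSC-like cells and 2129 and 2100 CPM in Sertoli-like cells, so the copy did not bring the total in germ cells to the somatic level.

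**Figure D3:**
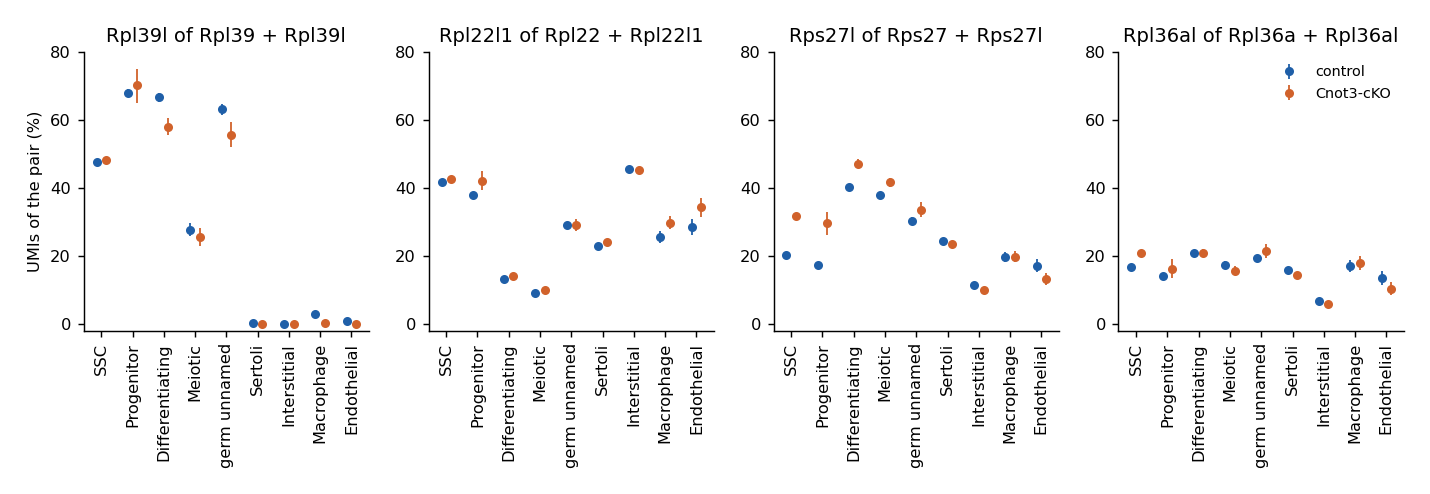
Share of a parent and copy pair's UMIs that came from the copy (y axis, %), for 4 pairs in each cell class, with exact Clopper-Pearson intervals at 95%. Rpl39l gives 47.6% and 48.4% of its pair in SSC-like cells and 27.7% and 25.5% in meiotic-like cells, and Rps27l gives a larger share in differentiating-like than in SSC-like cells in both libraries. Rpl36a, Rpl36al and Rps27 have 3′ stretches in common with other listed genes, so the shares of their pairs are less certain.

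Of the other paralogs, 2 were also far higher in germ-like than in Sertoli-like cells, at low levels. Rpl10l, the intronless copy of Rpl10 on chromosome 12 (chr12:66283379-66284401), had 47.2 and 55.5 CPM among germ-like cells, and 0.26 and 0.27 CPM from 11 and 16 UMIs among Sertoli-like cells, where free RNA would give 0.56 and 0.34 CPM. It gave 8.64% and 9.71% of the pair's UMIs in germ-like cells, with 55.3 and 62.3 CPM in SSC-like cells and 14.7 and 13.5 CPM in meiotic-like cells. After thinning, 38.5% and 40.2% of germ-like cells and 0.34% and 0.26% of Sertoli-like cells had a UMI of it. Rpl3l, known from heart and skeletal muscle (chr17:24727820-24736143), had 6.02 and 7.72 CPM from 281 and 163 UMIs among germ-like cells, and 4 and 2 UMIs among Sertoli-like cells. Its log2 ratios of germ over Sertoli were 5.97 (4.59 to 7.85) and 7.85 (5.98 to 10.91). The parent Rpl3, whose protein lies near the catalytic centre, had 2099 and 1621 CPM, so Rpl3l gave 0.29% and 0.47% of the UMIs of the pair. Together with Rpl39l, 3 of the 8 paralogs (37.5%) were past a log2 ratio of 1 in both libraries and none was lower by as much, beside the 23.4% and 23.7% of all genes.

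Rpl22l1 and Rps27l were found in every main class, and differed in opposite directions between SSC-like and differentiating-like cells. Rpl22l1 was at 1165 and 907 CPM in SSC-like, 1064 and 944 in progenitor-like, 272 and 278 in differentiating-like and 272 and 263 in meiotic-like cells, with 463 and 460 in Sertoli-like and 1338 and 1339 in interstitial cells. The log2 ratios of differentiating-like over SSC-like cells were -2.10 (-2.15 to -2.04) and -1.71 (-1.81 to -1.61). Its parent Rpl22 was at 1625 and 1222 CPM in SSC-like and 2748 and 2355 CPM in meiotic-like cells, the reverse order. Rps27l, known as a p53 target, was at 347 and 394 CPM in SSC-like, 818 and 995 in differentiating-like and 1093 and 1284 CPM in meiotic-like cells, with log2 ratios of 1.24 (1.19 to 1.29) and 1.34 (1.27 to 1.40) for differentiating-like over SSC-like cells. It gave 20.1% and 31.7% of the UMIs of Rps27 and Rps27l in SSC-like cells and 40.4% and 47.2% in differentiating-like cells. The unnamed germ cells, led by Stra8 and Kit, lay between these classes and are not in the ratios above. They had 632 and 606 CPM of Rpl22l1 and 457 and 488 CPM of Rps27l.

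By the same measure, Rpl39 was the 1 of 77 core genes lower in differentiating-like than in SSC-like cells in both libraries (-1.67 and -1.02) and none was higher, beside 8.02% and 4.34% of 9566 genes tested. At a finer clustering the Cnot3-cKO value of Rpl39 was -0.95, short of the threshold. Rps4x was at -1.82 and -0.96, but free RNA would give 58.8 of its 124 CPM and 60.5 of its 105 CPM in differentiating-like cells. With the free RNA taken off, Rps4x was at -2.55 and -1.70 and Rpl39 at -2.08 and -1.26, both past the threshold in each library.

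The 3 remaining paralogs were found in germ-like and Sertoli-like cells alike, within a log2 ratio of 1 of each other. Rpl36al had 237 and 248 CPM in germ-like and 214 and 184 CPM in Sertoli-like cells, and Rpl7l1, which acts in ribosome assembly, was at 119 and 125 CPM against 77.7 and 76.6 CPM, log2 ratios of 0.62 and 0.71. Rps27rt, a single-exon copy of Rps27, was at 49.1 and 35.8 CPM against 67.1 and 63.0 CPM, ratios of -0.45 and -0.82, and its ratio of meiotic-like over SSC-like cells was 0.41 and 1.15. Since 91.1% of the 3′ stretches of Rps27rt occur also in Rps27, its values are uncertain. For Rpl36al 71.5% of the stretches occur also in another listed gene, which had no UMIs in germ-like or Sertoli-like cells, so its values are uncertain too. Rps19bp1 had 61.5 and 63.1 CPM in germ-like and 62.3 and 61.4 CPM in Sertoli-like cells.

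The genotype comparison asks what deletion of Cnot3, a subunit of the CCR4-NOT deadenylase that shortens mRNA tails, was accompanied by in the levels of these mRNAs. In germ-like cells no core gene was higher in Cnot3-cKO by a log2 ratio of 0.5 or more and 1 of 77, Rps4x, was lower, while among 12518 genes with at least 100 UMIs 9.9% were higher and 5.65% lower. The median core gene was at -0.05, from -0.80 to 0.32, and the median of all genes was at 0.02. Counting intervals lay above 0 for 28 core genes (36.4%) and below 0 for 46 (59.7%), beside 31.1% and 26.4% of all genes. Core genes, with a median of 2734 and 2599 CPM, have narrow intervals that leave 0 at small ratios. All genes include those with as few as 100 UMIs, so these shares are not matched in counting error and are not read as an excess. Within single clusters the tally was 14 above and 52 below in cluster 0 and 18 and 33 in cluster 3, but 28 and 23, 41 and 22, 28 and 19 and 38 and 21 in clusters 1, 2, 5 and 6, and the core median was 0.0030 with clusters weighted as in control. The weighted value leans on the few Cnot3-cKO cells of clusters 1 and 3, which number 25 and 10. The spread of the core ratios (SD 0.22) was close to that of 155 other genes at 500 CPM or more (SD 0.24). In the somatic classes the spread was smaller. Core genes had a median of -0.10 with SD 0.05 in Sertoli-like cells and of 0.05 with SD 0.04 in interstitial cells, where 0 of 77 were past the fold in either direction, beside 1.71% higher and 1.42% lower among 12075 genes in Sertoli-like cells and 1.77% and 1.79% of 12823 in interstitial cells.

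**Figure D4:**
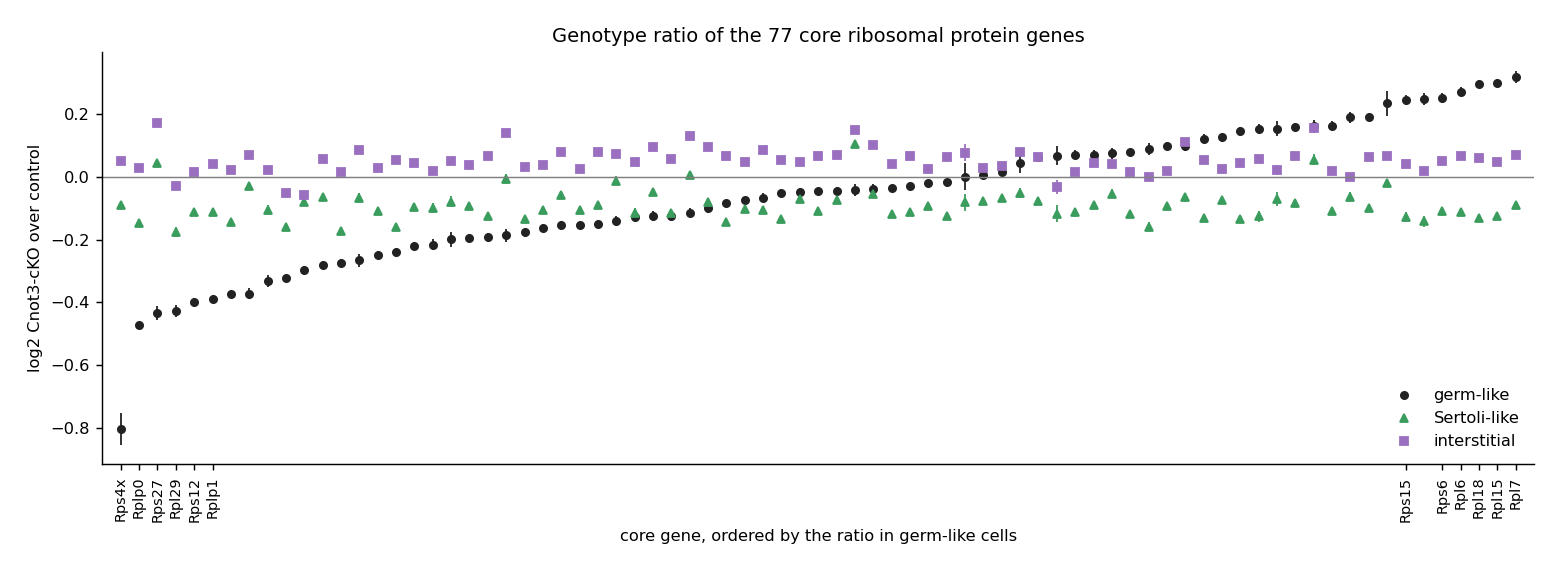
Log2 ratio of Cnot3-cKO over control (y axis) for each of the 77 core genes, ordered by the ratio in germ-like cells (x axis, with 6 genes named at each end, by the limit of the interval nearest 0), with 95% counting intervals, in germ-like, Sertoli-like and interstitial cells. Ratios in germ-like cells run from -0.80 for Rps4x to 0.32 for Rpl7, and those in Sertoli-like and interstitial cells stay near -0.10 and 0.05.

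Of the 6 core genes whose intervals lay farthest above 0, 4 encode large subunit proteins. Rpl7 was at 1446 and 1805 CPM, a log2 ratio of 0.32 (0.30 to 0.34). Rpl15 was at 3158 and 3888 CPM (0.30) and Rpl18 at 2993 and 3679 CPM (0.30). Rpl6 followed at 0.27, Rps6, the substrate of the S6 kinases, at 0.25, and Rps15, which lies near the decoding site, at 0.25. In Sertoli-like cells these 6 genes were at -0.09 to -0.13, and in the 6 germ clusters each of them was higher in Cnot3-cKO in all 6. The genes were picked for high ratios in the same cells pooled, so their agreement over clusters and their distance from Sertoli-like cells are partly fixed by that choice.

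At the other end, values are given for the 3 stalk proteins together, of which none was past the fold. Rplp0, the base of the stalk, was at 4649 and 3349 CPM, a log2 ratio of -0.47 (-0.49 to -0.46). Rplp1 was at 5139 and 3924 CPM (-0.39) and Rplp2 at 4067 and 3425 CPM (-0.25). All 3 were lower in all 6 germ clusters, from -0.53 to -0.13 for Rplp0, and in Sertoli-like cells they were at -0.15, -0.11 and -0.11. Rplp0 and Rplp1 were picked for low ratios in the same cells pooled, which partly fixes their direction in the clusters. Others whose intervals lay farthest below 0 were Rps27, at 1316 and 975 CPM (-0.43), Rpl29, at 1807 and 1344 CPM (-0.43), and Rps12, at 3410 and 2586 CPM (-0.40). Rps27, Rpl29, Rps12, Rplp1 and Rplp2 belong to the 21 genes with shared 3′ stretches, and none of the 6 genes at the other end does.

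Rps4x had the largest genotype ratio of the core genes, -0.80 (-0.86 to -0.75). By cluster it was at 480 and 201 CPM in cluster 0, a log2 ratio of -1.26 (-1.34 to -1.17), and at 428 and 251 CPM in cluster 1, a ratio of -0.77 (-0.94 to -0.60). Progenitor-like cells had -0.71, from 10 Cnot3-cKO cells, the unnamed germ cells -0.46 and differentiating-like cells -0.23. In meiotic-like cells, where its level was near that of free RNA, the ratio was 0.52 (0.19 to 0.84). The other ratios hold free RNA too, which would give 56.2 of 318 and 58.3 of 182 CPM in germ-like cells. In differentiating-like cells it would give 58.8 of 124 and 60.5 of 105 CPM. With it taken off, 262 and 124 CPM were left in germ-like cells and 65.2 and 44.9 CPM in differentiating-like cells. The intervals above do not cover this. The other X-linked core genes were at 0.23 (Rpl39), 0.05 (Rpl10) and -0.20 (Rpl36a) in germ-like cells as a whole.

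**Figure D5:**
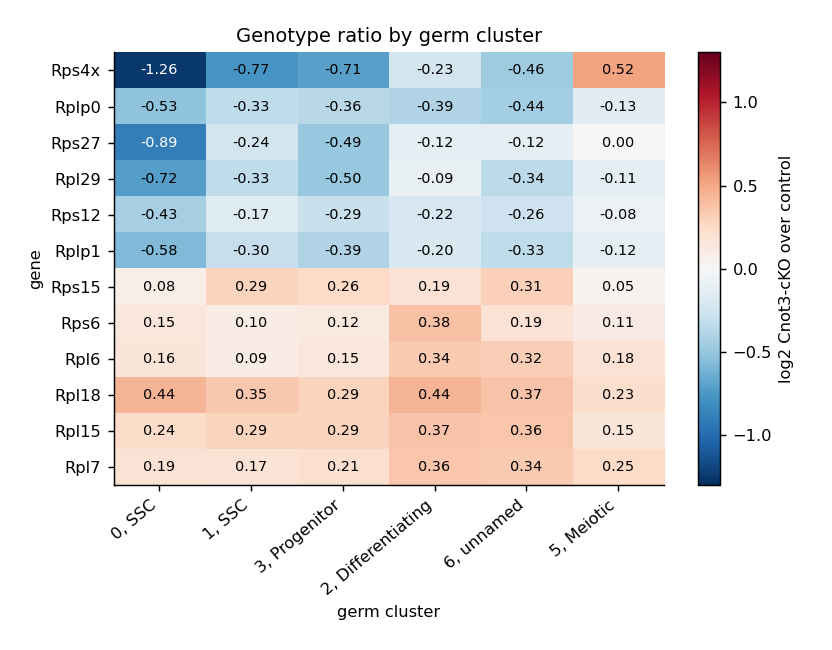
Log2 ratio of Cnot3-cKO over control (colour and printed value) in 6 germ clusters (columns) for the 6 core genes whose intervals in germ-like cells lay farthest below 0 and the 6 farthest above 0 (rows). The lower 6 rows are above 0 in every cluster, and Rps4x is lower in 5 clusters and at 0.52 in the meiotic-like one. Rows were picked from the same cells pooled, so agreement over clusters is partly fixed by that choice.

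The direction over germ clusters was counted next. Of the 77 core genes, 17 (22.1%) were higher in Cnot3-cKO in all 6 clusters and 21 (27.3%) lower, beside 10.2% and 10.1% of 5726 genes tested in every cluster. Other genes at 500 CPM or more gave 14.2% and 15.5%, but their median level was 742 and 779 CPM, and their intervals in single clusters had a median width of 0.17 against 0.10 for core genes. The 2 sets were thus not matched in counting error. The clusters share their 2 libraries, so they are not replicates. Large and small subunit genes were then set side by side. Of 46 large subunit genes the interval lay above 0 for 23 and below 0 for 21 in germ-like cells, with a median of 0.03, and of 31 small subunit genes it lay above 0 for 5 and below 0 for 25, with a median of -0.08. With clusters weighted as in control the medians were 0.018 and -0.031, and over the 6 clusters 12 large subunit genes were higher in all and 11 lower in all, against 5 and 10 of the small subunit. The difference between subunits was not tested.

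In SSC-like cells 8 of 77 core genes (10.4%) were lower by 0.5 or more and none higher, with a median of -0.13, beside 6.83% lower and 12.4% higher among 10801 genes. The share of lower core genes was thus not far from that of all genes, while no core gene was among the higher ones. The 8 genes were Rps4x (-1.10), Rps27 (-0.70), Rpl29 (-0.63), Rplp0 (-0.58), Rps12 (-0.55), Rps20 (-0.53), Rplp1 (-0.52) and Rpl3 (-0.51), of which Rps20 and Rpl3 were named after their values were seen. In differentiating-like cells the median was 0.05 and no core gene was past the fold in either direction. Cnot3 itself was also less lowered there, at -0.46 against -1.01 in SSC-like cells, and the part of this in the contrast was not tested. By cluster, 8 were lower by as much in cluster 0 (10.4%, beside 10% lower and 14.3% higher of 9479 genes), where Rpl39 took the place of Rps12, Rps4x alone in clusters 1 and 3, and none in clusters 2, 5 and 6. Cluster 0 held most of the Cnot3-cKO and few of the control stem-like cells, and the part of cell state in its values was not tested. At a clustering resolution of 1, an SSC-like cluster held 1 control and 243 Cnot3-cKO cells. Ratios within cluster 0 may thus set unlike cells side by side.

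Paralogs showed genotype ratios from -0.46 to 0.36 in germ-like cells, and none of the 8 was past the fold there. In single stages, Rpl3l was at 0.83 (0.38 to 1.29) and Rps27rt at -0.75 (-0.92 to -0.58) in SSC-like cells, and Rps27l at 0.51 in progenitor-like cells. Over the 6 clusters Rps27l was higher in all, from 0.09 to 0.74, and Rpl22l1 ran from -0.98 to 0.03. Rpl39l was at -0.13 (-0.17 to -0.09) in germ-like cells as a whole, at -0.42 (-0.50 to -0.34) in cluster 0 alone and at -0.35 without that cluster. The pooled values also hold the unequal proportions of the clusters, and in clusters 1, 2 and 3 the ratio was -0.06, -0.13 and -0.05. Rpl39 was at 0.23 in germ-like cells as a whole, at -0.26 (-0.31 to -0.21) in SSC-like and at 0.40 (0.27 to 0.52) in differentiating-like cells. With the germ clusters weighted as in control, Rpl39 was at -0.15 and Rpl39l at -0.13. Rpl10l was at 0.23 (0.13 to 0.34), Rps27l at 0.12, Rpl22l1 at -0.09, Rpl36al at 0.06, Rpl7l1 at 0.07, Rps27rt at -0.46 and Rpl3l at 0.36 (0.07 to 0.64).

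Other genes of ribosome production and translation, from lists outside the symbol rule, were counted past the fold in germ-like cells. Among all 12518 genes tested, 9.9% were higher and 5.65% lower by as much. The lists are short, and whether any of them differs from that share was not tested. Of 20 nucleolar and ribosomal RNA genes none was past 0.5 in either direction, with a median of 0.07. The farthest were Gnl3 at 203 and 286 CPM (0.50, just below the threshold), Mybbp1a at 112 and 155 CPM (0.46) and Nolc1 at 136 and 182 CPM (0.42). Between cell classes, 14 of 20 were higher in germ-like than in Sertoli-like cells by a log2 ratio of 1 or more in each library, beside the 23.4% of all genes, with a median of 1.35 and 1.40. Of 13 translation factors whose mRNAs begin with a pyrimidine run, none was past the fold. Eef1d was at 0.43, Eif3e at 0.39 and Eef1a1, the main elongation factor, at 5242 and 4146 CPM (-0.34). Of 11 genes that control such mRNAs, Eif4ebp2, an inhibitor of cap-dependent initiation, was lower at 69.8 and 47.5 CPM (-0.56, -0.66 to -0.45), and Rptor and Tsc1 of the mTOR pathway were at -0.37 and 0.35. Of genes listed as partners of the ribosome, Rack1 was at -0.05, and Fau, which encodes a ribosomal protein that the symbol rule misses, at -0.04. Of 76 mitochondrial ribosomal protein genes tested, 2 were past the fold, both higher, with a median of 0.06. They were Mrpl24 at 207 and 322 CPM (0.63) and Mrpl39 at 49.0 and 74.6 CPM (0.60), and Mrps22 followed at 118 and 160 CPM (0.45).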

How the data were processed

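Testis cells of 2 control and 2 Cnot3-cKO samples, which the labels do not tell from repeat runs, were measured on a droplet platform that counts 3′ ends. The authors deposited UMI counts without normalization, as 1 matrix for each genotype that merges its samples. The submitters' processing notes name Cell Ranger 3.0.1 and mm10. The sources used here do not state counting options. Depth was 181550221 and 168770743 UMIs.

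Cells were called by Cell Ranger's order-of-magnitude rule (3000 expected cells, 99th percentile divided by 10) and kept at up to 20% mitochondrial UMIs. The study's bounds on mitochondrial share, UMIs and genes, which leave 189 and 57 germ-like cells, were an alternative. Both libraries were clustered together without the 86 genes (2500 variable genes, 30 components, 15 neighbours, Leiden at 0.5) and germ-like cells again. Clusters were named from marker lists, with at least 3 markers seen in 10% of cells and raised 2-fold over the 25th percentile of clusters, a scoring settled after the data were seen. Somatic-led germ clusters were left out. Scrublet called 499 and 447 doublets, which stayed in.

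UMIs were summed per class and library and given per 1e+06 UMIs with exact Poisson intervals. Ratios have exact conditional intervals and shares Clopper-Pearson intervals, at 95%. A count of 0 was read as allowing 3. Ratios needed 100 UMIs over both groups compared. With 1 library per genotype, no p-value was computed, and called means past a log2 ratio of 0.5 between genotypes or 1 between classes. Empty barcodes had at most 100 UMIs. Scripts were tested on simulated data. The genes, lists and rules were chosen with earlier results of these data known. Named are all paralogs and X-linked core genes, the 5 highest and 5 lowest core genes, the 6 at each end of the germ over Sertoli and genotype ratios, and 3 genes of each related list. Some genes that this rule picks are not reported here. Identifiers matched GENCODE M21 for 99.8% of genes. Alternatives were 10 fixed at the start and 4 added after seeing the data. Rps4l and Rps23rg1 were not analysed here, and neither was a protein table.

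Versions were Python 3.11.15, numpy 2.4.6, scipy 1.17.1, pandas 2.3.3, scanpy 1.11.5, leidenalg 0.10.2 and matplotlib 3.10.9.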

Additional observations from a re-analysis of the deposited data

Results flagged for a closer look

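The counting intervals of the genotype ratio lay above 0 in germ-like and below 0 in Sertoli-like cells for 27 of 77 core genes and the reverse for 2, in a set of which 71 lay below 0 in Sertoli-like cells. The same count was not made over all genes, and the intervals of these abundant genes are narrow. It is therefore not read as a trait of core genes. Values are given for the 7 core genes with such opposite intervals that are named above for their genotype ratio. The germ-like minus the Sertoli-like log2 ratio was 0.41 for Rpl7, 0.42 for Rpl15, 0.43 for Rpl18, 0.38 for Rpl6, 0.36 for Rps6 and 0.37 for Rps15, all higher in Cnot3-cKO germ-like cells, and -0.48 for Rps27, which was lower there. Within the germ lineage, the ratio of Rpl39 was higher in differentiating-like than in SSC-like cells by 0.66, and that of Rps4x was higher in meiotic-like than in SSC-like cells by 1.61, the latter value resting on a level near free RNA. With 1 library per genotype none of these differences was tested.

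Outside the rule, 5 pseudogene rows had a genotype ratio whose interval lay off 0 in germ-like cells, 3 above and 2 below. Rpl7a-ps5 was at 8.98 and 10.98 CPM (0.29), Rpl27-ps3 at 61.0 and 65.3 CPM (0.10) and Rpl13a-ps1 at 6.79 and 9.18 CPM (0.44). Rpl9-ps6 was at 35.1 and 28.3 CPM (-0.31) and Rps12-ps3 at 49.7 and 43.6 CPM (-0.19). Their parents share 3′ stretches with other listed genes, so the origin of their reads is uncertain.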

How the results depend on the processing

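Recomputed values follow for the results that moved beyond counting error, with the cause not tested except where the alternative holds fewer cells. The germ-like genotype ratio of the ribosomal protein share was -0.07 and became -0.036 under the study's filters, -0.085 without mitochondrial UMIs, -0.065 with the empty-barcode profile subtracted, -0.064 with each cell weighted equally, -0.069 with all germ-like cells, -0.16 in cluster 0 alone, -0.049 without it and -0.011 with clusters weighted as in control. In Sertoli-like cells -0.093 became -0.0951, -0.086, -0.087 and -0.0951 under the study's filters, without mitochondrial UMIs, with the empty profile subtracted and with equal cell weights. Germ over Sertoli in control, 0.22, became 0.26 under the study's filters, 0.22 without doublets or mitochondrial UMIs, 0.23 with the empty profile subtracted, 0.22 with all germ-like cells, 0.19 with equal weights, 0.30 in cluster 0, 0.21 without it and 0.22 in cells of 25000 UMIs or more. In Cnot3-cKO, 0.24 became 0.32, 0.24, 0.22, 0.25, 0.22, 0.24, 0.25 and 0.25 under the same settings without that of all germ-like cells, and 0.30 with clusters weighted as in control. Rpl39l between genotypes became -0.18 under the study's filters, -0.42 in cluster 0 and -0.35 without it, and over Sertoli it became 7.47 in cluster 0 of control and 7.27 under the study's filters in Cnot3-cKO. The core median of -0.05 became -0.028 under the study's filters, -0.063 without mitochondrial or without ribosomal protein UMIs, -0.13 in cluster 0, -0.015 without it and 0.0030 with clusters weighted as in control, a change of sign. All values weighted as in control rest on 25 and 10 Cnot3-cKO cells for clusters 1 and 3. The count of 1 core gene past the fold became 0 at a threshold of 1 and 8 in cluster 0.

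Single genes changed sign as follows. Between genotypes, the study's filters gave Rpl10 -0.046, Rpl10l -0.36, Rpl36al -0.014, Rpl39 -0.011, Rpl3l -0.62, Rpl7l1 -0.092 and Rps27rt 0.15. Cluster 0 alone gave Rpl10 -0.022, Rpl39 -0.85 and Rpl4 -0.057. Without it, Rpl10l was at -0.089, Rpl4 at -0.11 and Rps29 at 0.028. Weighted as in control, Rpl10 was at -0.012 and Rpl39 at -0.15. For germ over Sertoli, Rpl36al in cluster 0 of control was at -0.11. In Cnot3-cKO, Rpl7 was at -0.012 under the study's filters, -0.21 without cluster 0 and -0.018 weighted as in control, where Rps12 was at 0.030. Rps27l was at 0.22 in control and 0.29 in Cnot3-cKO under the study's filters, and in Cnot3-cKO at 0.0082 with equal weights, 0.026 without ribosomal protein UMIs, 0.57 without cluster 0 and 0.14 weighted as in control.

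Of 1112 recomputed single-gene values, 445 under fixed alternatives stayed within counting error, 283 moved beyond it and 12 changed sign. Under added alternatives 171 stayed, 187 moved and 14 changed sign. The 445 include 93 values at a clustering resolution of 1, which were the same by construction. Leaving out Scrublet calls kept 1122 and 462 of the germ-like cells, so it could shift little. The 445 is thus no measure of stability. The 4 added alternatives, on cluster 0, deep cells and cluster weights, were chosen after seeing the data. At a clustering resolution of 1 the germ-like and Sertoli-like sets were the same cells, so their values could not shift, but SSC-like cells became 326 and 306 and differentiating-like cells 396 and 89. There 8 core genes were again lower by 0.5 in SSC-like cells, Rpl22l1 was at -1.64 and -1.29 and Rps27l at 1.01 and 1.10 for differentiating-like over SSC-like cells, and Rpl39 was at -1.62 and -0.95. Other values by stage were not all recomputed. No paired analysis was possible because each genotype has 1 merged matrix and no barcode is tied to a sample, and for the same reason no replicate could be left out. The 57 Cnot3-cKO germ-like cells under the study's filters, and 10 progenitor-like cells, limit what their values can show.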

Other observations

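Between interstitial and Sertoli-like cells, Rpl22l1 was higher in interstitial cells at log2 ratios of 1.53 and 1.54, and Rps27l lower at -0.77 and -0.83. X-linked Rpl10 was higher there at 1.65 and 1.78. The core median was 0.62 and 0.76. The interstitial clusters themselves ranged in ribosomal protein share from 20.7% to 31.3% in control and from 17.3% to 31.8% in Cnot3-cKO. Among Sertoli-like clusters the share ran from 14.5% to 19.9% in control and from 13.1% to 18.7% in Cnot3-cKO.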
